A study of Mus musculus with 4 samples.

Results

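The genes described here form the NRF2, glutathione and antioxidant system of mouse Langerhans cells, the dendritic cells of the epidermis. Members were chosen by symbol: the glutathione transferases (Gst and Mgst genes), peroxiredoxins (Prdx) and glutathione peroxidases (Gpx), and a set of named genes from NRF2 (Nfe2l2) to phosphogluconate dehydrogenase (Pgd). The choice went by symbol alone, but was made with earlier results of these data known. It gave 79 probe sets of 49 genes, out of 22626 probe sets. G6pdx, Prdx1, Prdx5 and Prdx6 were not analysed here, because no probe set carried their symbol alone. Of the 79, 53 probe sets of 33 genes passed a filter on mean signal and were tested, and 26 did not pass.

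Expression was measured on 4 Affymetrix arrays, 2 of controls and 2 of TCDD samples. TCDD (2,3,7,8-tetrachlorodibenzo-p-dioxin) binds and activates AhR, the aryl hydrocarbon receptor, which is a transcription factor. TCDD mice received 10 µg TCDD and control mice the vehicle of DMSO and olive oil, in 100 µl into the peritoneum per the labels, and cells sorted to 95% purity were taken after 24 h. No skin site is named for control 1 and TCDD 1; control 2 and TCDD 2 come from back skin. The controls also name different experiments, so site and experiment cannot be told apart. The labels of the TCDD arrays name no experiment, so arrays were paired only by whether back skin is named. Each such pair is called a preparation, and whether its 2 arrays share an experiment is not known. Control 2 is a control by title and description, which were followed, although its treatment protocol names TCDD. The sources used here give no strain, age, sex or pooling of animals, so p-values reflect only how far these samples lie apart, which may be technical.

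NRF2 is a transcription factor that KEAP1 holds in the cytoplasm and hands to the proteasome; oxidants and electrophiles modify KEAP1, and NRF2 then reaches the nucleus and binds antioxidant response elements. Its targets make glutathione, recycle thioredoxin and glutathione with NADPH, conjugate electrophiles and degrade heme. Some of these genes also carry AhR response elements and, with Nqo1, belong to the battery of enzymes that dioxin is known to induce in liver. Langerhans cells sit in a tissue exposed to light and chemicals, and contact allergens are known to engage this system in dendritic cells.

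Promoter windows of 300 bases, from 250 before to 50 after each annotated start, were read from RefSeq (GRCm38.p6) for 44 of the 49 genes. Gclc, Gsr, Gsta4, Gstt2 and Hmox1 were not matched. Of 59 member windows, 10 (16.9%) held the core of the antioxidant response element, TGACNNNGC on either strand, against 12.4% of all 32851 windows. The core of the AhR response element, GCGTG on either strand, was in 26 member windows (44.1%), against 32.4% of all windows. Windows of a gene can overlap and share a match. By gene, the antioxidant core was in 10 of 44 members, against 3781 of all 27025 genes. The AhR core was in 21 of 44 members, against 9500 of 27025. Other spellings of either element were not searched, and a match is a run of letters and not a bound site. The windows of 4 members that stand for the regulator (Nfe2l2), glutathione synthesis (Gclm) and the thioredoxin system (Srxn1, Txnrd1) are shown, with matches to either core in capitals; for Txnrd1 it is the only one of its 3 windows with the antioxidant core.
Nfe2l2, chr2:75704614-75704913, minus strand: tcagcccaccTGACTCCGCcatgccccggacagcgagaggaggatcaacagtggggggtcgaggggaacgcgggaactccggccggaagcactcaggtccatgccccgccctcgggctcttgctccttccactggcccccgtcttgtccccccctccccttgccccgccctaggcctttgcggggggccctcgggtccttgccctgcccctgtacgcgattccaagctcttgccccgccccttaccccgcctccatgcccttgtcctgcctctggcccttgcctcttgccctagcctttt
Gclm, chr3:122245307-122245606, plus strand: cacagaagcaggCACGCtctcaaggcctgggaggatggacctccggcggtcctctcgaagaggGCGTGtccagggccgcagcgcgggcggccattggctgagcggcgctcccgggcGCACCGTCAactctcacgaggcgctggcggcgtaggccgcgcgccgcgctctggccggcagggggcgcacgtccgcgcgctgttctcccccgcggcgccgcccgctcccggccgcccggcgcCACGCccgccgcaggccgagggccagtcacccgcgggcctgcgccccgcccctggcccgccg
Srxn1, chr2:152105274-152105573, plus strand: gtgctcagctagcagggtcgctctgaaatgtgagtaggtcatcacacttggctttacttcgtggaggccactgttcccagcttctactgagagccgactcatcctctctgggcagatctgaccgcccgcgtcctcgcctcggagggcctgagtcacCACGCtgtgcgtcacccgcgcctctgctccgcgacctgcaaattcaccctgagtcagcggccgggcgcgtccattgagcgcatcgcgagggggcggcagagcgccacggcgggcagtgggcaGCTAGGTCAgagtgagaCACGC
Txnrd1, chr10:82858956-82859255, plus strand: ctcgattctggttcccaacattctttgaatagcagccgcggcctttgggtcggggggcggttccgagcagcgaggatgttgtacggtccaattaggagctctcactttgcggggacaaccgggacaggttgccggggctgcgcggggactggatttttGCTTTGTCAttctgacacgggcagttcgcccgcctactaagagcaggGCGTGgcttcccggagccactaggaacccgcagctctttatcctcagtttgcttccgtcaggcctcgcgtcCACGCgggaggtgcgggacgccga
In these windows the Nfe2l2 sequence held the antioxidant core alone, and the Gclm, Srxn1 and Txnrd1 sequences held both cores without overlap.

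The arrays differed in RNA quality. Actin control probe sets had a 3′ over 5′ signal ratio of 49.7 on control 1 and between 3.48 and 7.71 on the other arrays, and that of Gapdh was 107 against 9.55 to 15.9. Langerhans cell markers were present: 8 of 8 lay above the filter, among them Epcam, an adhesion molecule, at 7541 to 10032, while Cd207, the lectin langerin, read 2120 (control 1), 5343 (TCDD 1), 7211 (control 2) and 2155 (TCDD 2). The summed signal of 6 T cell markers with a probe set was 569 (control 1) and 1755 (control 2) against 1146 (TCDD 1) and 530 (TCDD 2). That of 7 keratinocyte markers was 507 and 741 in controls against 598 and 825 with TCDD. The 3 above the filter were Krt14 (166.1 to 249.5), Krt5 (72.5 to 211.5) and Krt10 (106.9 to 151.6). Below it, Krt1 read 18.9 on control 1 and 96.6 to 213.6 on the others. Trp63 read 71.2 to 85.3, and Col17a1 and Krt15 were under 22 on every array. That of 5 melanocyte markers, all 5 above the filter, was 1006 and 1269 in controls against 1044 and 955 with TCDD.

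No member passed the test between TCDD and control. Of the 53 tested probe sets, 25 had a log2 difference above 0 and 28 below, with a median of -0.03 against -0.0064 over all 13576 tested, of which 49.2% lay above 0. None passed an adjusted p of 0.05 (limma with Benjamini-Hochberg adjustment, smallest adjusted p 0.9999), nor did any of the 13576 (0%), and 1 member, higher with TCDD, passed an unadjusted p of 0.05, against 1.47% of all and 0.906% of all in that direction. The standard errors of the members ran from 0.28 to 0.77, and 95% intervals extended by a median of 0.81 log2 units each way. With array-by-array omission, some probe sets passed when either control was omitted, and none of them were members. These fits keep a single control. Without control 2 it is control 1, whose 3′ over 5′ ratios were highest, so TCDD and RNA quality cannot be told apart there.

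**Figure D1:**
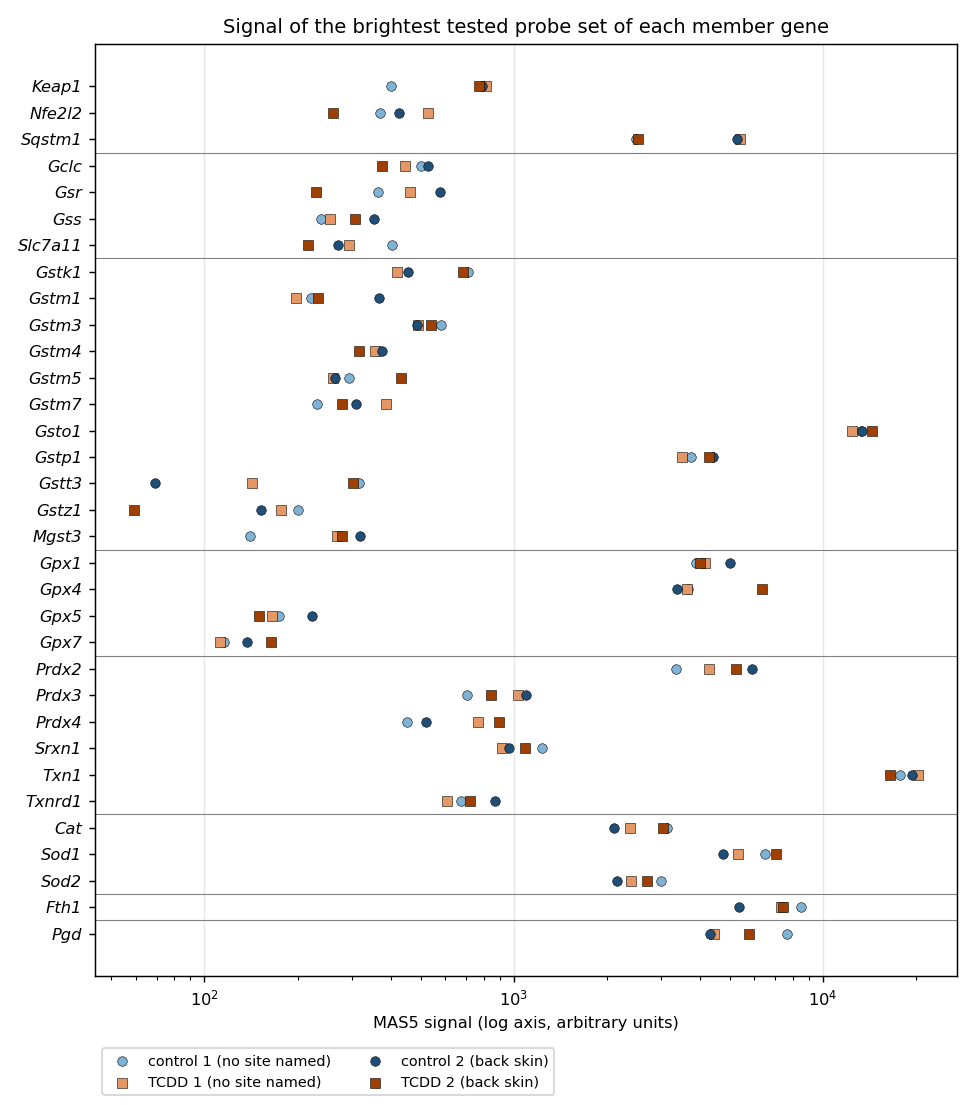
MAS5 signal (log axis, arbitrary units) of the brightest tested probe set of each of the 33 member genes, with 1 point per array; circles are controls, squares TCDD, light colours the preparation with no site named and dark colours back skin, and grey lines part the roles. Both TCDD points lie to the right of both control points for Prdx4 alone among these 33 genes, and to the left for Gclc, Gpx5 and Gstm4; over all 8413 genes these shares are 11.4% and 14.1%.

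The preparations mostly disagreed in sign. Of the 53 probe sets, 4 (7.55%) were higher after TCDD in both preparations, against 19.3% of all tested, and 15 (28.3%) were lower in both, against 21.3%. The other 34 (64.2%) went opposite ways, against 59.4%: 15 were up with no site named and down in back skin (28.3%, against 33.5%), and 19 the reverse (35.8%, against 25.8%). Both TCDD arrays stood above both controls for 3 probe sets (5.66%, against 12.4%) and below both for 8 (15.1%, against 13.2%). Each ratio sets a single array against a single array, and whether the preparations differ in their response could not be tested with 4 arrays.

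**Figure D2:**
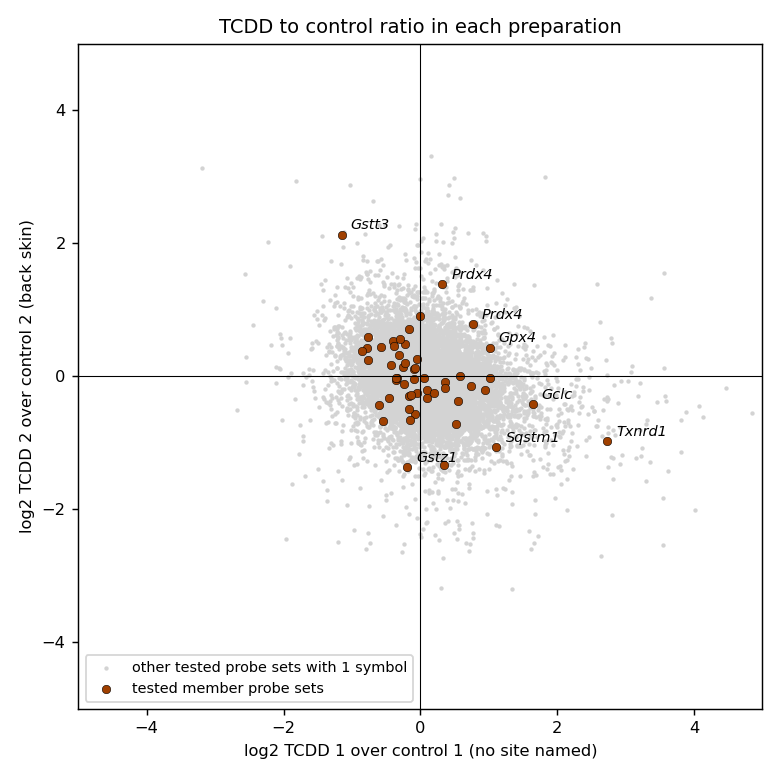
The log2 ratio of TCDD to control in the preparation with no site named (horizontal axis) and in back skin (vertical axis), for the 53 tested member probe sets (brown) and all other tested probe sets with 1 symbol (grey). Sqstm1 and a Txnrd1 probe set lie far to the lower right, Gstt3 to the upper left, and a Gpx4 and a pair of Prdx4 probe sets to the upper right.

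The regulators of the pathway showed opposite ratios, as did 59.4% of all tested probe sets. Nfe2l2 (1416543_at), which encodes NRF2, read 368.6 (control 1), 527.6 (TCDD 1), 424.6 (control 2) and 259.6 (TCDD 2). The TCDD arrays thus lay outside the controls on either side, and the TCDD minus control log2 difference was -0.10 ± 0.39 (SE, n = 2 per group), with a 95% interval from -0.995 to 0.80. Keap1 (1450746_at), the adaptor that marks NRF2 for degradation, read 402.4 on control 1 against 815.9 (TCDD 1), 790.9 (control 2) and 774.1 (TCDD 2). Control 1, whose 3′ over 5′ ratios were highest, was low and the other 3 were close together, which gave 0.49 ± 0.38, but 0.0070 without control 1. A dimmer Keap1 probe set, at 22.4 to 55.3, did not pass the filter.

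Sqstm1 (1450957_a_at) encodes p62, an autophagy receptor that binds KEAP1 and is itself an NRF2 target. It read 2485 (control 1), 5372 (TCDD 1), 5270 (control 2) and 2514 (TCDD 2). The arrays formed a low and a high pair, each holding a control and a TCDD sample, with log2 ratios of 1.11 (no site named) and -1.07 (back skin) and a difference of 0.02 ± 0.49. Cd207 and the summed T cell markers given above were low and high on the same arrays. Of the 8 Langerhans cell markers, 4 were up with no site named and down in back skin, against 33.5% of all tested probe sets. Another 3 were lower in both preparations (against 21.3%) and 1 was higher in both (against 19.3%). The 8 fibroblast and endothelium markers, of which 3 were above the filter, gave the same counts. In bulk RNA, fewer cells of a type and less RNA per cell cannot be told apart, and the part of T cells or of cell make-up in the Sqstm1 values was not tested.

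Of the 5 tested probe sets of genes that make and recycle glutathione, 2 were lower in both preparations and 3 went opposite ways. None of the 5 passed the test. Over all tested probe sets, 21.3% were lower in both and 59.4% went opposite ways. Gclc (1455959_s_at), the catalytic subunit of the ligase that limits glutathione synthesis, read 499.9 (control 1) and 527.4 (control 2) against 444.4 (TCDD 1) and 374.7 (TCDD 2). The groups did not overlap, but the log2 difference of -0.33 ± 0.34 was within its standard error. Slc7a11, the cystine transporter that supplies the pathway, read 404.1 and 270.8 in controls against 293.1 and 216.9 with TCDD (-0.39 ± 0.34), lower in both preparations with overlapping groups. Gsr (1421817_at), which reduces oxidized glutathione, read 363.7 and 578.8 in controls against 463.6 and 229.9 with TCDD (-0.49 ± 0.44), with TCDD 2 the lowest array. Gss, glutathione synthetase, differed by -0.06 ± 0.35.

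Dimmer probe sets of the same genes gave other values. A Gclc probe set (1424296_at) read 53.2 on control 1 against 165.7 (TCDD 1), 190.8 (control 2) and 142.8 (TCDD 2), a difference of 0.61 ± 0.57, opposite in sign to the brighter probe set. A dimmer Gsr probe set, below the filter, read 39.1 on control 1 against 162.8 (TCDD 1), 165.7 (control 2) and 113.7 (TCDD 2). Gclm, the modifier subunit of the same ligase, also lay below the filter, at 12.7 (control 1), 94.4 (TCDD 1), 143.3 (control 2) and 48.2 (TCDD 2). In all 3, control 1 alone was far below the remaining arrays, and the part of its RNA quality in these values was not tested.

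**Figure D3:**
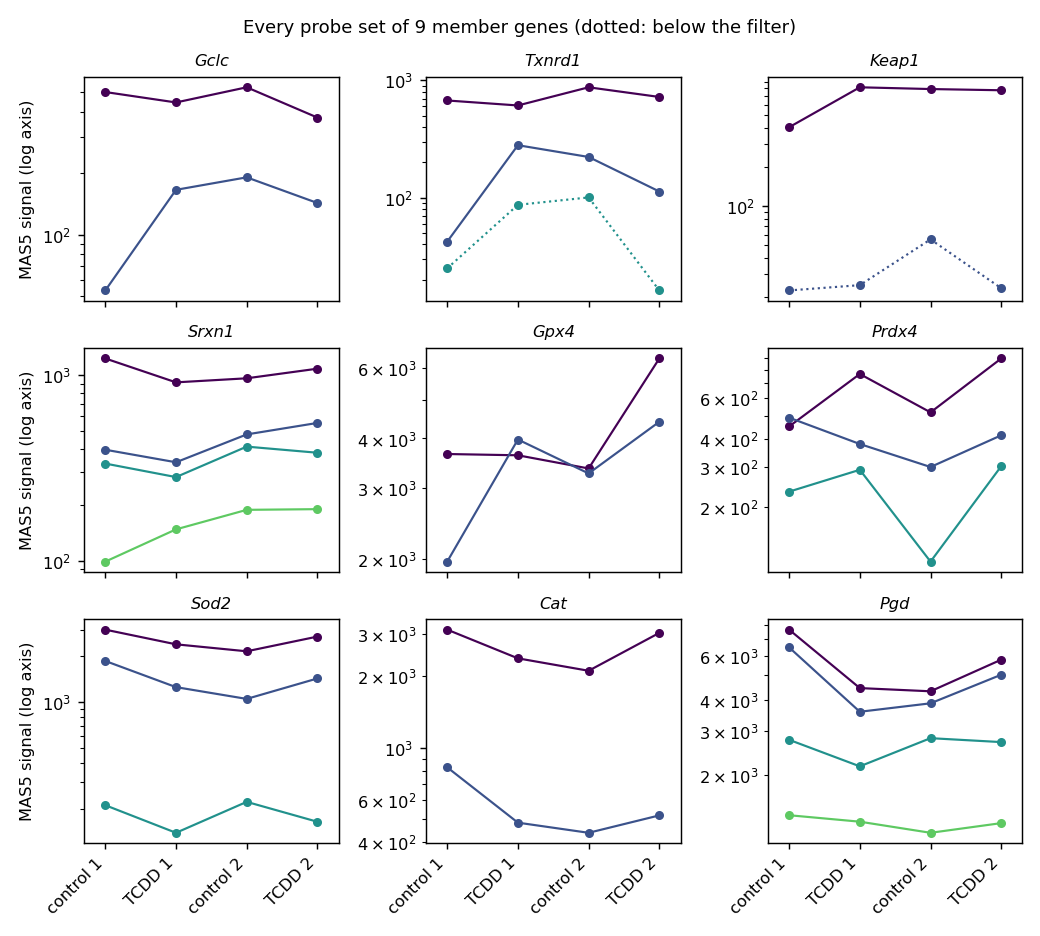
MAS5 signal (log axis) of every probe set of 9 member genes on the 4 arrays; lines only join the points of a probe set, brighter ones are darker, and dotted lines mark probe sets below the filter. Control 1 is the lowest point of the dimmer Gclc probe set and of the dimmer tested Txnrd1 probe set, while the brightest probe sets of both genes are nearly flat.

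The thioredoxin system held both the brightest member and the only probe set past an unadjusted p of 0.05. Txn1 (1416119_at), thioredoxin, the protein that passes electrons to peroxiredoxins, read 17785 and 19436 in controls against 20320 and 16421 with TCDD (-0.03 ± 0.28). Its interval from -0.66 to 0.61 was the narrowest among the tested members. Txnrd1 (1421529_a_at), the NADPH-dependent reductase of thioredoxin, read 673.5 and 872.4 in controls against 610.7 and 721.6 with TCDD (-0.21 ± 0.34), with overlapping groups. Another Txnrd1 probe set (1424486_a_at) read 42.2 (control 1), 280 (TCDD 1), 222.3 (control 2) and 112.9 (TCDD 2). Control 1 was again the lowest, and the difference was 0.88 ± 0.77, opposite in sign to the brighter one.

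Srxn1, sulfiredoxin, which repairs overoxidized peroxiredoxins and is a classic NRF2 target, had 4 tested probe sets. The brightest (1426875_s_at) read 1234 and 964 in controls against 916.6 and 1087 with TCDD (-0.13 ± 0.36), with control 1 highest. The others differed by -0.18, -0.01 and 0.30, the last from 98.7 on control 1 to between 147.4 and 189.5 on the other arrays. No direction was shared by the 4.

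Prdx4, the peroxiredoxin of the endoplasmic reticulum, gave the largest upward differences that had the same sign in both preparations. Its brightest probe set (1435731_x_at) read 451.7 (control 1) and 520.7 (control 2) against 766.5 (TCDD 1) and 896.3 (TCDD 2). Both TCDD arrays stood above both controls, with log2 ratios of 0.76 and 0.78 in the 2 preparations. The difference was 0.77 ± 0.34 (limma, unadjusted p = 0.0493, adjusted p = 0.9999), between 0.66 and 0.89 with any array left out. A second (1416166_a_at) read 234.2 and 115.7 in controls against 291.9 and 302.7 with TCDD (0.85 ± 0.41, and 0.34 to 1.36 with single arrays left out). The third (1416167_at) read 493.6 and 300.2 in controls against 378.5 and 413.2 with TCDD (0.04 ± 0.36), so that the probe sets of this gene did not share a pattern. Probe sets whose names end in _x_at can bind RNA of related genes.

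Prdx2 and Prdx3, the other peroxiredoxins measured here, had differences within their standard errors. Prdx2, a cytosolic peroxiredoxin abundant in red cells, read 3340 and 5908 in controls against 4285 and 5247 with TCDD (0.09 ± 0.33) by its brightest probe set, and a second one differed by -0.19 ± 0.34. Of 4 erythroid markers with a probe set, Hba-a1 (50.6 to 125), Alas2 and Slc4a1 lay below the filter, and Epor passed it at 426 to 533.7. Prdx3, the mitochondrial peroxiredoxin, read 704.8 and 1092 in controls against 1029 and 846.9 with TCDD (0.09 ± 0.37).

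Gpx4, the glutathione peroxidase that reduces lipid hydroperoxides in membranes, is a selenoenzyme. Its TCDD minus control difference was above 0 by both probe sets, without passing the test. The probe set 1451695_a_at read 1969 and 3271 in controls against 3976 and 4403 with TCDD, with control 1 the lowest array. Both TCDD arrays stood above both controls, by 0.72 ± 0.34 (limma, unadjusted p = 0.064), and by 0.36 to 1.09 with single arrays left out. The brighter 1456193_x_at read 3657 and 3365 in controls against 3631 and 6339 with TCDD (0.45 ± 0.36). There TCDD 2 alone stood out, and the log2 ratio with no site named was -0.01. Gpx1, the cytosolic glutathione peroxidase, read 3894 and 5000 in controls against 4163 and 3991 with TCDD (-0.11 ± 0.33). Gpx5 and Gpx7 passed the filter at 112 to 222.9 with differences of -0.32 and 0.11, and Gpx2, Gpx3, Gpx6 and Gpx8 did not pass, at 5.4 to 70.5.

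The glutathione transferases formed the largest family, 30 probe sets of 21 genes, of which 13 probe sets were tested. None of the 13 was higher after TCDD in both preparations, against 19.3% of all tested. Of the 13, 5 (38.5%) were lower in both, against 21.3%, and 8 (61.5%) went opposite ways, against 59.4%. Gsto1, an omega class enzyme that reduces dehydroascorbate, had the highest signals of the family by probe set, 13315 and 13356 in controls against 12445 and 14445 with TCDD. Its log2 difference of 0.01 ± 0.28 was matched by the second probe set (0.01 ± 0.29). Gstp1, the pi class enzyme, was also close to 0 in its difference, at 3753 and 4399 in controls against 3501 and 4275 with TCDD (-0.07 ± 0.32).

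The transferases with the lowest differences of the same sign in both preparations were Gstz1 and Gstm7. Gstz1, the zeta class enzyme that isomerizes maleylacetoacetate in tyrosine breakdown, read 201.3 and 152.6 in controls against 176.2 and 59.3 with TCDD (-0.78 ± 0.48). The value rested on TCDD 2, without which it was 0.0077. Gstm7, a mu class enzyme, read 198.8 and 237.4 in controls against 136.5 and 149.2 with TCDD by probe set 1419072_at (-0.61 ± 0.39). These groups did not overlap, but the brighter 1425946_at gave 0.29 ± 0.37 from 231.8 and 308 in controls against 386.1 and 278 with TCDD.

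Gstt3, a theta class enzyme, read 316.8 (control 1), 142.8 (TCDD 1), 69.2 (control 2) and 303.3 (TCDD 2). Control 1 and TCDD 2 were high and the other arrays low, the reverse of Sqstm1, with log2 ratios of -1.15 and 2.13 and a difference of 0.49 ± 0.68. Gstt1, its relative, lay below the filter and had the same order of high and low arrays at 158.2 (control 1), 67.9 (TCDD 1), 39.5 (control 2) and 123 (TCDD 2). Members at least 2-fold in opposite directions were 2 of the 53 tested, against 1.07% of all tested. Mgst3, a membrane-bound transferase, read 140.3 on control 1 and 269.2 to 319.4 on the others (0.37 ± 0.40, and -0.22 without control 1). Gsta2 and Gstp3, below the filter, likewise read 24 and 34.5 on control 1 and 73.8 to 185.1 on the remaining arrays.

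**Figure D4:**
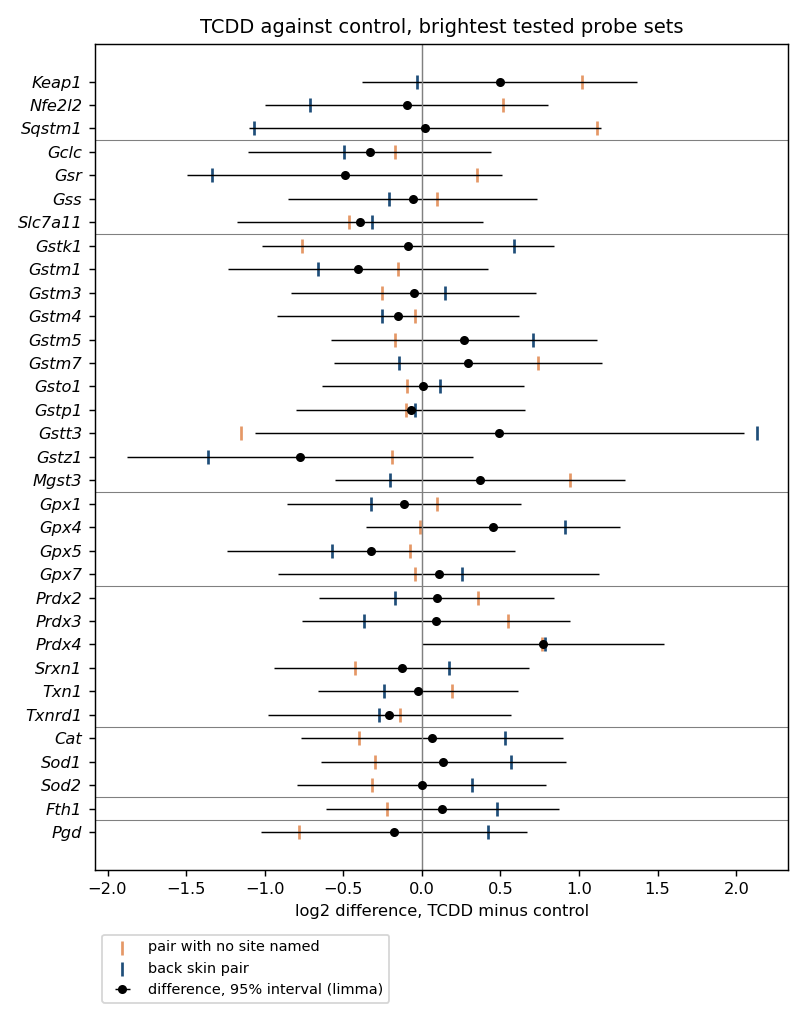
The TCDD minus control log2 difference of the brightest tested probe set of each of the 33 member genes (black points) with its 95% interval from limma, n = 2 arrays per group; ticks mark the ratio in the preparation with no site named (orange) and in back skin (blue). The intervals of 32 genes include 0, and that of Prdx4, from 0.0031 to 1.54, does not, against 1.26% of 8413 genes at an unadjusted p of 0.05.

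The enzymes that remove superoxide and hydrogen peroxide directly were most often highest on control 1. Sod1, the cytosolic superoxide dismutase, read 6508 and 4742 in controls against 5293 and 7031 with TCDD (0.14 ± 0.34). Sod2, the mitochondrial dismutase and a known NF-kB target, read 2998 and 2162 in controls against 2402 and 2700 with TCDD (0.00 ± 0.35) by 1448610_a_at. Its dimmest probe set, 1417194_at, read 211.7 and 222.7 in controls against 139.6 and 164.9 with TCDD, lower in both preparations without overlap (-0.52 ± 0.39). Cat, the peroxisomal catalase, read 3133 and 2104 in controls against 2373 and 3036 with TCDD (0.06 ± 0.37). Of the 7 probe sets of these genes, control 1 was the highest array for 5 and the lowest for 0, against 27.6% and 31.7% of all tested.

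Heme and iron genes and the supply of NADPH gave no common direction. Fth1, the ferritin heavy chain that stores iron, read 8517 and 5339 in controls against 7297 and 7451 with TCDD (0.13 ± 0.33), and a second probe set gave 0.14 ± 0.35. Hmox1, heme oxygenase 1, lay below the filter at 33.6 (control 1), 52.6 (TCDD 1), 170.6 (control 2) and 23.2 (TCDD 2), with control 2 the highest. Pgd, an NADPH-producing enzyme of the pentose phosphate pathway, read 7637 and 4318 in controls against 4448 and 5785 with TCDD (-0.18 ± 0.37). Its other 3 probe sets differed by -0.24 to 0.02.

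Across the members, 14 genes had more than 1 tested probe set. The sign of the TCDD difference was shared by all probe sets of 5 (Fth1, Gpx4, Gsto1, Prdx4 and Txn1) and not shared in the other 9. The same count was not made over all genes, so it cannot be read as a trait of the members. The differences within a gene spread most for Txnrd1 (1.08 log2 units) and Gclc (0.94). In both genes the dimmer probe set had its lowest value on control 1.

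By promoter content, 7 of the tested genes had the antioxidant core in a window: Gstm5, Gstm7, Nfe2l2, Pgd, Sod1, Srxn1 and Txnrd1. Taking the brightest probe set, their differences ran from -0.21 to 0.29 with a median of -0.10, and 6 went opposite ways in the preparations, against 59.3% of all genes. The 24 tested genes with a window but without the core ran from -0.78 to 0.77 with a median of 0.00. The 18 with the AhR core had a median of -0.01 and the 13 without it 0.01.

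Further genes of the pathway, by lists chosen for their function, gave 0 calls in each list (limma, adjusted p = 0.9999 for each gene named here); the brightest probe set stood for a gene, and of all 8413 genes 17.9% were higher and 22.8% lower in both preparations. Of 9 tested NRF2 partners and regulators, 1 was higher and 1 lower in both. Maff, a small Maf protein that dimerizes with NRF2, read 315.5 and 132.5 in controls against 211.2 and 452.7 with TCDD (0.60 ± 0.53), and Nfe2l3, a relative of NRF2, differed by 0.42 ± 0.40. Of 14 other NRF2 targets, 3 were higher and 3 lower in both. Blvrb, biliverdin reductase B, differed by 0.38 ± 0.37 and Taldo1, transaldolase, by 0.35 ± 0.33, the latter from 2451 and 2986 in controls to 3160 and 3788 with TCDD.

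Of 8 tested genes of glutathione turnover and glutaredoxins, 3 were higher in both and 0 lower, led by Ggct, gamma-glutamylcyclotransferase (0.54 ± 0.42), while Cbs, an enzyme of cysteine synthesis, differed by -0.33 ± 0.52. Of 8 genes of the thioredoxin system and methionine sulfoxide reductases, 2 were higher and 3 lower. Nxn, nucleoredoxin, read 206.6 and 428.6 in controls against 180.3 and 175.7 with TCDD (-0.74 ± 0.40). Txn2, mitochondrial thioredoxin, read 487.5 on control 1 and 994.7 to 1053 on the others (0.57 ± 0.38). Txnip, the inhibitor of thioredoxin, was chosen for naming by its values; its signals were 443.8 (control 1), 1728 (TCDD 1), 2211 (control 2) and 620.1 (TCDD 2), low and high on the same arrays as Sqstm1.

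Of 5 tested subunits and regulators of the NADPH oxidase, which makes the superoxide that these enzymes remove, 2 were higher in both and 0 lower. Cyba, p22phox, read 1154 on control 1 and 3838 to 5277 on the others (0.65 ± 0.50), and Rac2, a GTPase of the complex, differed by 0.22 ± 0.35. Of 9 genes of iron and heme handling, 3 were higher and 1 lower, with Ireb2, an iron sensor, at 0.37 ± 0.34 and Alas1, the first enzyme of heme synthesis, at 0.32 ± 0.36. Of 6 tested genes of the AhR pathway, which include Nfe2l2, 1 was higher and 1 lower. The largest differences were those of Cyp1b1 (-0.59 ± 0.48, from signals of 83.3 to 170.9, near the filter) and Ahr (-0.36 ± 0.41). Cyp1a1, an AhR target, read 182.8 and 117.8 in controls against 94.9 and 190.7 with TCDD (-0.13 ± 0.51). Nqo1 differed by 0.07 ± 0.37.

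Back skin was also compared with the preparation with no site named, where cell source and experiment cannot be told apart. None of the 53 member probe sets passed the test (limma, adjusted p of at least 0.9994, and 0 at an unadjusted p of 0.05), against 0% of all 13576 at the adjusted and 2.02% at the unadjusted threshold. Back skin was higher in controls and after TCDD alike for 18 of 53 (34.0%, against 22.8% of all tested) and lower in both for 4 (7.55%, against 21.8%). The highest back skin minus no site values were those of the dimmer Gclc probe set (0.81 ± 0.57), a Srxn1 probe set (1425351_at, 0.65 ± 0.43) and Mgst3 (0.62 ± 0.40). In all 3, control 1 was the lowest array. The lowest were those of Gstz1 (-0.99 ± 0.48), Gstt3 (-0.55 ± 0.68) and Slc7a11 (-0.51 ± 0.34). Slc7a11 was lower in back skin in controls (-0.58) and after TCDD (-0.43), and Gstz1 likewise (-0.40 and -1.57), whereas Gstt3 was lower in controls (-2.19) and higher after TCDD (1.09).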

How the data were processed

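The deposited table holds intensities, 1 MAS5 signal per probe set and array on a linear scale; affy and MAS5 are named per the submitters' processing notes, without a version. The arrays share a trimmed mean of 500 (2% off each end). Detection calls were not used here. Of 22626 probe sets other than 64 controls, 20380 had 1 symbol in the platform annotation, 691 several and 1555 none; 20351 of the single symbols matched RefSeq (GRCm38.p6) by gene ID.

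Signals were taken to log2. The 13576 probe sets whose mean log2 signal reached 6.85 (the 40th percentile; 115 as a geometric mean) were fitted with limma 3.58.1 in R 4.3.3, on treatment plus preparation, with the variance trended on the mean and p-values adjusted by Benjamini-Hochberg over all of them. The residual degrees of freedom number 1, and limma pools variances across probe sets. The fit was tested on simulated data. Precision is limited by the number of arrays. The preparation comes from the labels' skin site; across probe sets the back skin to no site log2 ratios of controls and TCDD had a Pearson's r of -0.18.

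A gene's brightest tested probe set stood for it. The members and lists were chosen with earlier results of these data known, so counts are descriptions beside those of all tested probe sets. All 4 signals are given for a list of core genes and for members at least 2-fold in opposite directions. The exceptions are a Gstm1 (1425627_x_at) and a Txnrd1 (1424487_x_at) probe set below the filter, which are given by their ratios. Signals are also given for the 3 members with the largest TCDD difference in each direction with the same sign in both preparations. The same holds for the 3 with the largest preparation difference in each direction. Up to 2 genes are named per pathway list, with Txnip, Tiparp, Cyp1a1 and Nqo1 named in addition. Alternatives were median centring and quantile normalization, the filter dropped or set at the 60th percentile, a floor or an offset of 50, an untrended variance, a fit lacking the preparation block, each array left out (fitted without the preparation, the lone array of a group being assumed to vary like the others) and 1 probe set per gene.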

Additional observations from a re-analysis of the deposited data

Results flagged for a closer look

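Of the 79 member probe sets, 6 were at least 2-fold up after TCDD in a preparation and at least 2-fold down in the other. Each value is a log2 ratio of a single TCDD array to a single control array, first with no site named and then in back skin, and the difference was not tested. The ratios were 1.11 and -1.07 for Sqstm1 and -1.15 and 2.13 for Gstt3, which passed the filter. These were 2 of the 53 tested, against 1.07% of all tested. Below the filter the ratios were 2.89 and -1.57 for Gclm and 1.80 and -2.63 for a Txnrd1 probe set (1424487_x_at). They were -1.66 and 1.03 for a Gstm1 probe set (1425627_x_at) and -1.22 and 1.64 for Gstt1. The share over all probe sets below the filter is not given here. Signals of 12.7 for Gclm and 25 for Txnrd1 on control 1, 16.2 for Txnrd1 on TCDD 2 and 39.5 for Gstt1 on control 2 lay below the 20th percentile of their arrays (36.6, 39.2 and 40.6), so the ratios that use them are not exact. The 2 arrays per group were too few to look for outlying samples by signal. By RNA quality, control 1 stood apart, with 3′ over 5′ ratios of 49.7 (actin) and 107 (Gapdh). The other arrays reached 7.71 and 15.9.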

How the results depend on the processing

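The TCDD count of 0 of 13576 became 10 with a replicate block crossed between preparations (TCDD 1 with control 2), chosen after the data were seen, and 0 to 285 with single arrays left out; the fit with no replicate block also gave 0. Members made up 0 of these calls in every fit run, and 19 to 32 of the 53 were higher with an array left out. The preparation count of 0 ran from 0 to 89. The members' median difference ran from -0.10 to 0.042. The number higher in both preparations, 4 of 53, was 6 of 53 after quantile normalization and after median centring (lower in both 13 and 12, against 15), 8 of 79 with no filter, 2 of 41 under the stricter filter and 1 of 33 with 1 probe set per gene. Of the named differences, Txn1 turned to 0.082 after quantile normalization and Sod2 (1448610_a_at) to -0.0047 after median centring; the cause was not tested. Leaving out single arrays turned the sign of others, over these ranges: Cat -0.22 to 0.35, Fth1 -0.21 to 0.47, Gclc (1424296_at) -0.31 to 1.53, Gpx1 -0.30 to 0.066, Gsr -0.997 to 0.015, Gstt3 -0.61 to 1.59, Gstz1 -1.56 to 0.0077, Mgst3 -0.22 to 0.96, Nfe2l2 -0.61 to 0.42, Pgd -0.59 to 0.23, Sod1 -0.093 to 0.36, Sod2 -0.24 to 0.24, Sqstm1 -0.53 to 0.57, Srxn1 -0.31 to 0.050 (1426875_s_at) and -0.17 to 0.76 (1425351_at), and Txn1 -0.18 to 0.13. For back skin, Gclc (1424296_at) ran from -0.0056 to 1.63 and Gstt3 from -1.62 to 0.51. The sign held in all 4 of these fits, over ranges that were often wide, for Gclc (1455959_s_at, -0.46 to -0.21), Gpx4 (1451695_a_at, 0.36 to 1.09; 1456193_x_at, 0.050 to 0.85), Prdx4 (1435731_x_at, 0.66 to 0.89; 1416166_a_at, 0.34 to 1.36), Gstm7 (1419072_at, -0.73 to -0.48), Keap1 (0.0070 to 0.98), Slc7a11 (-0.68 to -0.10), Sod2 (1417194_at, -0.64 to -0.40) and Txnrd1 (1421529_a_at, -0.39 to -0.021). Signals near the filter limit what can be read from dim members.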
